A study of Mus musculus with 7 samples.

Results

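The HIF subunits and oxygen-sensing regulators were followed in 7 whole FVB mouse embryos at E10.5, each on its own Affymetrix one-colour array. The members are 10 genes listed by function: the subunits Hif1a, Epas1 and Arnt, the hydroxylases Egln1, Egln2, Egln3 and Hif1an, the ubiquitin ligase component Vhl, and the coregulators Cited2 and Cited4. All probe sets that the array annotation assigns to one of these symbols were taken, without regard to their values. This gave 17 of the 22690 probe sets, for 9 of the 10 genes, and Hif1an has no probe set in the annotation used here. A total of 14 of these 17, for 8 genes, passed the filter on dim probe sets and were among the 14554 probe sets tested. The annotation names 12393 genes in all, of which 8657 were tested.

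The 5 diabetes-exposed embryos developed in a dam made diabetic with streptozotocin, a toxin of the insulin-producing beta cells, and the 2 control embryos in an untreated dam. Of the exposed embryos, 3 had no neural tube defect (NTD) identified and 2 had an NTD. No genetic alteration was involved, all embryos were of the FVB strain, and nothing in the labels separates the embryos of a group other than their number. Because the 5 exposed embryos shared 1 dam and the 2 controls shared another, an effect of the litter cannot be told apart from one of diabetes, and p-values measure the spread between littermates.

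HIF is a heterodimer of an oxygen-regulated alpha subunit, HIF1A or EPAS1 (HIF2A), and the constitutive beta subunit ARNT, and it binds hypoxia response elements with the core ACGTG or GCGTG. In the presence of oxygen, the EGLN prolyl hydroxylases mark the alpha subunits for VHL, the recognition component of a ubiquitin ligase that sends them to the proteasome, while the asparaginyl hydroxylase encoded by Hif1an blocks their binding to the coactivators CBP and p300. CITED2 and CITED4 occupy the same CBP/p300 surface. Since much of this control acts on protein, an array that measures transcripts sees only part of it. At mid-gestation, the pathway is known for its requirement in the development of vessels, heart, placenta and neural tube.

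The promoter windows of the 4 genes with a tested probe set on which control and exposed embryos did not overlap are shown so that the core elements can be read in place. They run from 250 bases before to 50 bases after the gene start of RefSeq on build GRCm38.p6, at chr12:73907617-73907916 on the plus strand for Hif1a, chr12:54203825-54204124 on the minus strand for Egln3, chr10:17722978-17723277 on the plus strand for Cited2 and chr4:120666313-120666612 on the plus strand for Cited4. Capitals mark ACGTG or GCGTG on either strand.
Hif1a: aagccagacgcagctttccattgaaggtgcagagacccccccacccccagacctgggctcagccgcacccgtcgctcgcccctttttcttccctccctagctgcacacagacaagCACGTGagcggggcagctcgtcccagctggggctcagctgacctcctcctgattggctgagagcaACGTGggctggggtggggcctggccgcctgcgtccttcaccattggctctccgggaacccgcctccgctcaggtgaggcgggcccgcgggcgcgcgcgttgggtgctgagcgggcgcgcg
Egln3: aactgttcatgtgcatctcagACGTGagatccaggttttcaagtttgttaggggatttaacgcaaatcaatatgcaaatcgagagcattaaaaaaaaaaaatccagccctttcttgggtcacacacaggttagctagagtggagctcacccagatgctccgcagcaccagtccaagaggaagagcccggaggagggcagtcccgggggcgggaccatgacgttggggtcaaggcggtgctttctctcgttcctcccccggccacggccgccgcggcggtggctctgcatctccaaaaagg
Cited2: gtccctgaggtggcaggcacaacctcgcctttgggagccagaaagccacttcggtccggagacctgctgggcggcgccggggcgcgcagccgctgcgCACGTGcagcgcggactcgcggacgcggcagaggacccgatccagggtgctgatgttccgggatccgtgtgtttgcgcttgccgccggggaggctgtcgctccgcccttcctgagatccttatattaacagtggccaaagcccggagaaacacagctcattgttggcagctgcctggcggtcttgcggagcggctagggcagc
Cited4: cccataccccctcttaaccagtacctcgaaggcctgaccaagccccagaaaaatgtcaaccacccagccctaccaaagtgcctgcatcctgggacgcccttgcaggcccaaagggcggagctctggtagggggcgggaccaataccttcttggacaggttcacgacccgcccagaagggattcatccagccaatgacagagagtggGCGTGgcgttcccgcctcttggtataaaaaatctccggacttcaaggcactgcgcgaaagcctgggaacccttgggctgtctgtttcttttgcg
The RefSeq table held windows for 9 of the 10 genes, and Egln2 has 2. Of these 10 windows, 8 held ACGTG or GCGTG on either strand, against 43.8% of all 32851 windows in the table, and 5 held ACGTG, against 19.6%. In Hif1a, in Cited2 and in 1 of the 2 Egln2 windows, a palindromic CACGTG places overlapping matches on both strands. That Egln2 window holds 6 matches, the most of the 10 windows, and the other Egln2 window holds 1 GCGTG. Egln1 holds 1 match to each core and Arnt 1 GCGTG, while the windows of Vhl and Hif1an hold neither. These matches describe letters in short windows, and no binding was measured.

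The authors had scaled each array to the same trimmed mean, which set the overall signal, and the medians were 206 to 218. Exposed embryo 1 without NTD stood apart: the summed signal of the 10 yolk sac and liver markers measured was 24982 there and 1479 to 3892 in the other 6 embryos, and it was highest for all 10, among them Afp and Apoa1. The 7 neural markers measured summed to 10300 to 10361 in controls and 7503 to 9045 in exposed embryos. Singly, Fabp7, Dcx and Stmn2 were below both controls in every exposed embryo, whereas Sox2, Nes, Pax6 and Tubb3 overlapped between the groups. Over the 7 embryonic erythroid markers, controls had 53314 to 55525 and exposed embryos 66970 to 85014, and the globins Hba-x, Hbb-bh1 and Hbb-y each read above both controls in every exposed embryo. The sums of the 6 heart markers were 8321 to 8607 and 9119 to 10874, respectively, although only Myh7 was singly above both controls in every exposed embryo. Those of the 8 endothelial markers overlapped, with 2803 to 2943 in controls and 2497 to 3461 in exposed embryos. The placental marker Tpbpa was between 10.4 and 30.0 on all 7 arrays. Of the sex-linked markers, Xist read 165 to 256 and the Y-linked Eif2s3y 203 to 245 in both controls and in exposed embryo 2 with NTD, whereas the other 4 exposed embryos had 6074 to 7533 for Xist and 0.549 to 2.76 for Eif2s3y. The male pattern of both controls and the female pattern of 4 of the 5 exposed embryos thus ran almost along the comparison. The part of these differences in the results below was not tested, except where values without exposed embryo 1 are given, and fewer cells of a type cannot be told apart from less RNA per cell.

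Between control and diabetes-exposed embryos, Cited4 rose and was the 1 member called by limma, at an adjusted p (Benjamini-Hochberg) under 0.05. No member was called lower. Of all tested probe sets, 0.172% were called, 0.11% with higher and 0.0618% with lower signals in exposed embryos. Array quality weights called 3.37% of all tested probe sets and 3 of the 14 members, while Cyber-T, which regularizes the variance of each probe set, called 9% and 4. At an unadjusted limma p under 0.05, 4 of the 14 member probe sets were higher and 2 lower, where 7.63% and 8.52% of all tested probe sets were. The same numbers, 4 higher and 2 lower, had no overlap between the groups, where 11.4% and 13.4% of all tested probe sets did. Among the 4 higher probe sets of both counts, Egln3 1418648_at, passed the filter only through the exposed embryos, where it was high. The median log2 fold change of the 14 was 0.11, and 0.03 without exposed embryo 1 without NTD, beside 0.00 over all tested probe sets. The members therefore did not move together: the higher probe sets belong to Egln3, Cited2 and Cited4, and the lower ones to Hif1a. The study itself picked out Hif1a, Cited2 and Cited4 on these arrays, so the values of these 3 are no independent evidence of their direction. Its quantitative PCR used E10.5 embryos of normal appearance from other pregnancies. There the study reported lower Hif1a in exposed embryos, but no significant difference in Cited4.

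**Figure D1:**
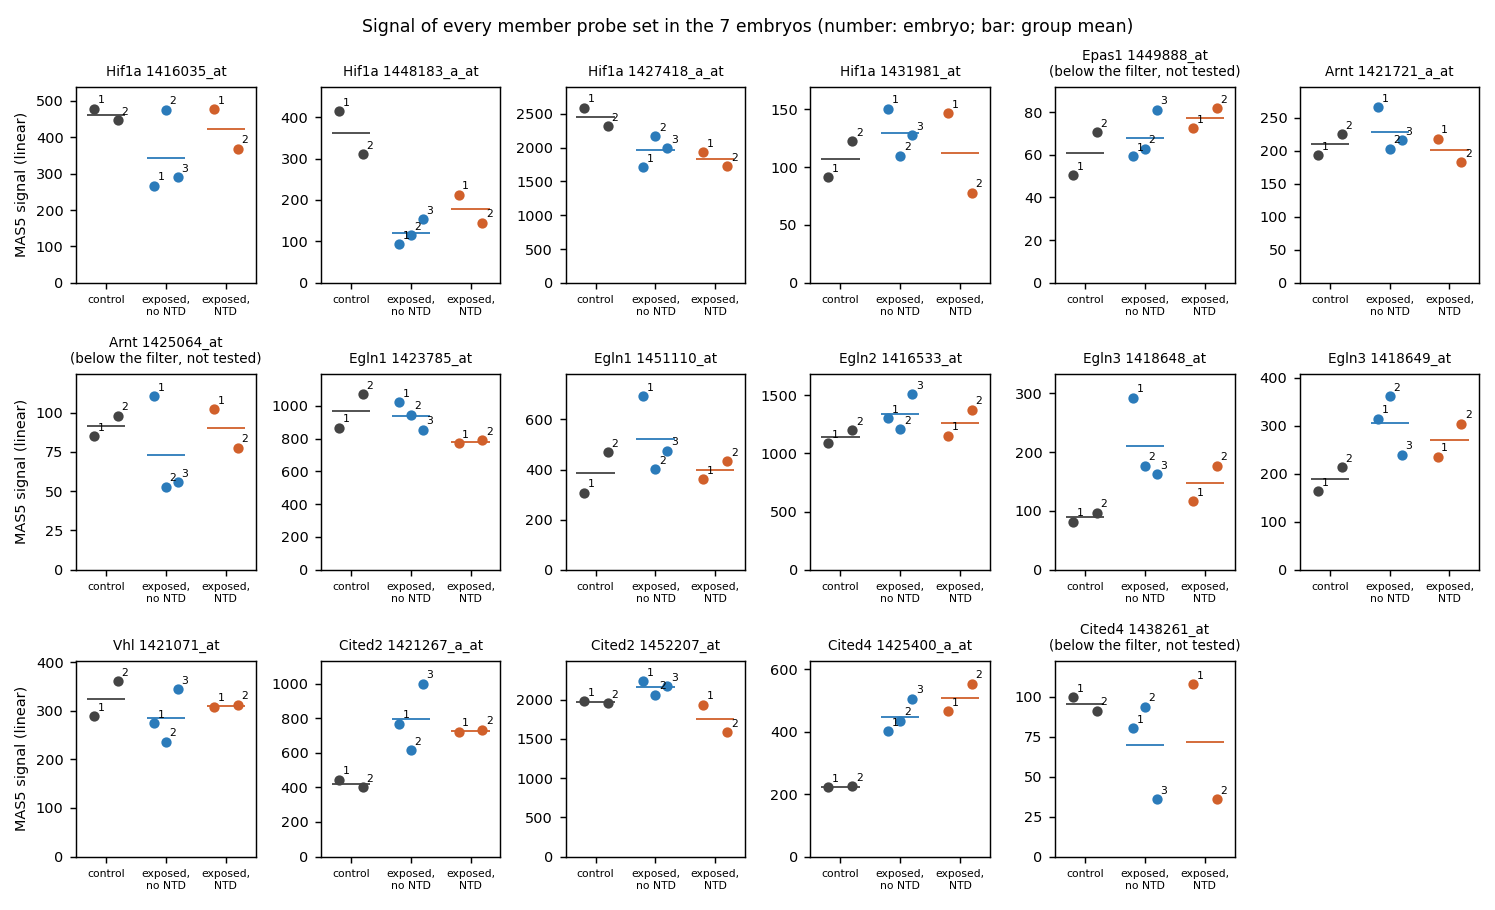
Linear MAS5 signal (vertical axis, from 0, own scale per panel) of the 17 member probe sets in the 2 control embryos, 3 exposed embryos without NTD and 2 exposed embryos with NTD; points are single embryos with their number and bars are group means. Cited4 1425400_a_at reads 223 and 225 in the controls and 402 to 555 in the exposed embryos, while Hif1a 1448183_a_at reads 311 and 414 in the controls and 93.5 to 213 in the exposed embryos.

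Hif1a encodes the alpha subunit that is stabilized when oxygen falls, and it was represented by 4 probe sets that did not move alike. On probe set 1448183_a_at the controls had signals of 414 and 311, the exposed embryos without NTD 93.5, 115 and 154, and those with NTD 213 and 145. Every exposed embryo lay below both controls, with the lowest value in exposed embryo 1 without NTD and the highest in exposed embryo 1 with NTD. Control embryos averaged 362 ± 72.9 (SD, n = 2) and exposed embryos 144 ± 45.4 (SD, n = 5), a 2.52-fold higher level in controls. The log2 fold change of -1.37 (SE 0.30) had an adjusted p of 0.0807 by limma and an exact permutation p of 0.048, the smallest that the 21 splits of 2 against 5 embryos allow. It thus missed the threshold over all probe sets. Only 3 of the 5 exposed embryos reached the 40th percentile of their array on this probe set, whereas both controls did. Without exposed embryo 1 with NTD, limma gave it an adjusted p of 0.0452 and a log2 fold change of -1.53, in a fit that called 0.399% of all tested probe sets, and over the 7 exclusions of a single embryo the adjusted p ranged from 0.0452 to 0.589. The summed neural markers, like this probe set, were lower in every exposed embryo than in both controls. Only 3 of the 7 neural markers, Fabp7, Dcx and Stmn2, did so singly. The part of the neural markers in the Hif1a values was not tested.

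The brightest Hif1a probe set, 1427418_a_at, differed less. Its signals were 2593 and 2316 in the controls, 1711, 2172 and 1995 in the exposed embryos without NTD, and 1932 and 1723 in those with NTD. Here also the groups did not overlap, but the gap between the lowest control and the highest exposed embryo was narrow. The log2 fold change was -0.37 (SE 0.13), with an adjusted p of 0.205 by limma and an exact permutation p of 0.048. Probe set 1416035_at had 479 and 446 in the controls against 267, 476, 290, 478 and 369 in the exposed embryos, which overlapped (log2 fold change -0.34, 95% interval -0.86 to 0.18). On the dim 1431981_at, with 91.3 and 122 in the controls and 77.9 to 150 in the exposed embryos, the log2 fold change was 0.17 (95% interval -0.54 to 0.89). Both intervals include 0, so that neither probe set gives a direction.

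Whether the probe sets of a gene moved by unequal amounts was tested on their log2 difference within each embryo, over 9 pairs of probe sets in Hif1a, Egln1, Egln3 and Cited2. The difference of 1416035_at from 1448183_a_at was 1.03 larger in exposed embryos, that of 1448183_a_at from 1431981_at was -1.55 by the same measure, and that of 1448183_a_at from 1427418_a_at averaged -2.77 in controls and -3.78 in exposed embryos. The exact permutation p values were 0.048, 0.048 and 0.095, or 0.143, 0.143 and 0.214 when adjusted over the 9 pairs. As 0.048 is the smallest p that 21 splits allow, no pair could pass the adjustment unless all 9 were at that value, and the adjusted values do not tell whether the probe sets differed. The estimated change on 1448183_a_at was the largest of the 4 Hif1a probe sets.

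The remaining subunits gave no called difference. Epas1, which encodes the alpha subunit HIF2A known from endothelium, had 1 probe set below the filter, with 50.5 and 70.6 in the controls and 59.3 to 81.9 in the exposed embryos. It was not tested. Arnt, the shared beta subunit, had 194 and 226 in the controls and 183 to 266 in the exposed embryos on 1421721_a_at, with a log2 fold change of 0.05 (95% interval -0.37 to 0.46). Its second probe set, 1425064_at, was below the filter at 53.0 to 111 over the 7 arrays.

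**Figure D2:**
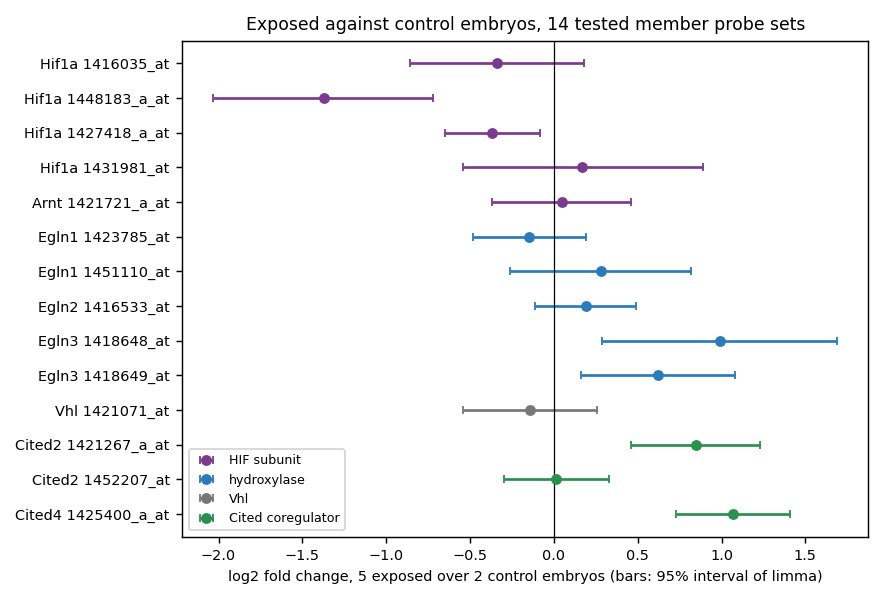
Log2 fold change of the 5 exposed over the 2 control embryos (horizontal axis) for the 14 tested member probe sets, coloured by role; points are limma estimates and bars their unadjusted 95% intervals. The intervals of Hif1a 1448183_a_at and 1427418_a_at lie below 0, those of both Egln3 probe sets, Cited2 1421267_a_at and Cited4 1425400_a_at above 0, and the other 8 include 0.

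Among the hydroxylases, Egln3 was higher in every exposed embryo without passing the test over all probe sets. Egln3 encodes PHD3, a prolyl hydroxylase known to be induced by HIF. On 1418648_at the controls had 81.6 and 96.9, the exposed embryos without NTD 292, 177 and 163, and those with NTD 117 and 177. The groups did not overlap, and exposed embryo 1 without NTD, the embryo with the high yolk sac and liver markers, was the highest. Both controls were below the 40th percentile of their array, so that this probe set entered the test only through the exposed embryos. The log2 fold change was 0.99 (SE 0.32) with an adjusted p of 0.177 by limma, and 0.81 (SE 0.27) without exposed embryo 1 without NTD. On 1418649_at, both controls passed the filter and the signals were 163 and 214 in the controls, 314, 361 and 239 in the exposed embryos without NTD, and 235 and 304 in those with NTD. Again there was no overlap. The log2 fold change was 0.62 (SE 0.21) with an adjusted p of 0.190, and 0.59 (SE 0.22) without exposed embryo 1 without NTD.

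Egln1 encodes PHD2, regarded as the main prolyl hydroxylase of normoxic cells, and its 2 probe sets had log2 fold changes of opposite sign with intervals that include 0. On 1423785_at the controls had 868 and 1073 and the exposed embryos 772 to 1022 (log2 fold change -0.15, 95% interval -0.48 to 0.19). On 1451110_at the controls had 308 and 468 and the exposed embryos 363 to 692, with the highest value again in exposed embryo 1 without NTD (log2 fold change 0.28, 95% interval -0.26 to 0.82). Without control 2 the first became 0.01, and without control 1 the second became -0.02, so that single controls set these signs.

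Egln2, which encodes the related PHD1, had 1086 and 1200 in the controls and 1153 to 1511 in the exposed embryos, overlapping by 1 control (log2 fold change 0.19, 95% interval -0.11 to 0.49). Vhl had 289 and 361 in the controls and 236 to 345 in the exposed embryos (log2 fold change -0.14, 95% interval -0.54 to 0.26). Neither passed the test.

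Cited4, whose product binds CBP and p300 through the surface that HIF alpha subunits use, was nearly equal in the 2 controls. On 1425400_a_at the controls had 223 and 225, the exposed embryos without NTD 402, 436 and 507, and those with NTD 465 and 555. The lowest exposed embryo was well above both controls. The mean rose from 224 ± 1.61 (SD, n = 2) to 473 ± 59.8 (SD, n = 5), 2.11-fold, with a log2 fold change of 1.07 (SE 0.16) and an adjusted p of 0.0329 by limma, at an exact permutation p of 0.048. The call held without exposed embryo 1 without NTD (adjusted p = 0.0312). It ended on omission of exposed embryo 3 without NTD (0.0715), exposed embryo 2 with NTD (0.0688), control 1 (0.237) or control 2 (0.251), where the log2 fold changes were 1.01 to 1.08, and over all 7 such exclusions the limma adjusted p ranged from 0.0312 to 0.251. No single embryo moved the size of the difference by much. The other Cited4 probe set, 1438261_at, was below the filter, with 99.7 and 91.0 in the controls and 35.7 to 108 in the exposed embryos.

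**Figure D3:**
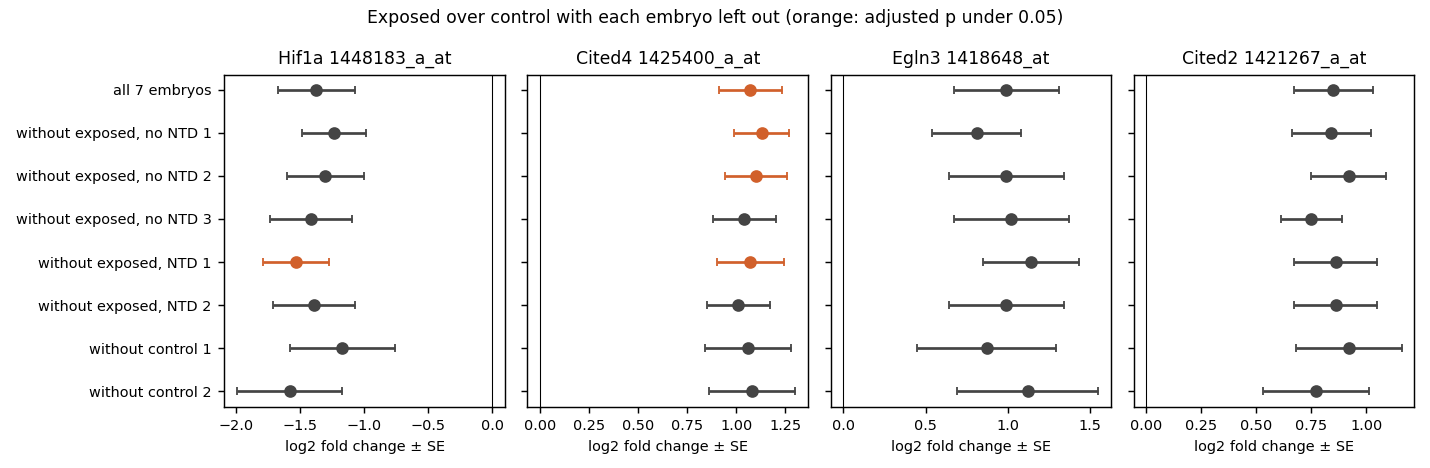
Log2 fold change of exposed over control embryos (horizontal axis, bars are the SE of limma) with all 7 embryos and with each left out in turn, for the 4 member probe sets of largest change; orange marks an adjusted p under 0.05. Cited4 1425400_a_at stays between 1.01 and 1.13 and Hif1a 1448183_a_at between -1.58 and -1.17, and the call of Cited4 is present in 4 of the 8 fits.

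Cited2, which is induced by HIF and competes with it for CBP/p300, and whose loss is known to cause heart and neural tube defects in mice, gave 2 different readings. On 1421267_a_at the controls had 444 and 401, the exposed embryos without NTD 767, 615 and 1001, and those with NTD 723 and 735. All 5 exposed embryos lay above both controls, with the highest in exposed embryo 3 without NTD. The means of 422 ± 30.7 (SD, n = 2) and 768 ± 142 (SD, n = 5) gave a log2 fold change of 0.85 (SE 0.18), an adjusted p of 0.0754 by limma and an exact permutation p of 0.048. On the brighter 1452207_at the controls had 1979 and 1950 and the exposed embryos 1582 to 2236, with a log2 fold change of 0.01 (95% interval -0.30 to 0.33). The log2 difference of 1421267_a_at from 1452207_at was -2.22 in controls and -1.39 in exposed embryos, with no overlap (exact permutation p = 0.048, the smallest possible, and 0.143 over the 9 pairs, where it could not pass unless all pairs were that low). The array annotation does not say which transcript forms the 2 probe sets read.

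The 3 embryos without NTD and the 2 with NTD were then compared with each other, to ask whether the members differed with the defect. None of the 14 member probe sets was called by limma, as none of all tested probe sets was (0%), and none had an unadjusted p under 0.05, where 3.02% of all tested probe sets did. Hif1a 1448183_a_at had 121 ± 30.7 (SD, n = 3) without NTD and 179 ± 47.5 (SD, n = 2) with NTD, a log2 difference of 0.57 (95% interval -0.07 to 1.21). From low to high, its group means were ordered without NTD, with NTD, control, and the first 2 did not differ beyond their spread.

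For Egln3 1418648_at the order was control, with NTD, without NTD, at 89.3, 147 and 211, and the log2 difference with against without NTD was -0.50 (95% interval -1.23 to 0.23). Cited4 ran from control to without NTD to with NTD, at 224, 448 and 510, with a log2 difference of 0.19 between the exposed groups (95% interval -0.19 to 0.57). For Cited2 1421267_a_at the exposed groups had means of 795 and 729, at a log2 difference of -0.10 (95% interval -0.54 to 0.35). All 3 intervals include 0.

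Each exposed group was also set against the same 2 controls. For these 4 probe sets, on which all exposed embryos lay on one side of the controls, the directions of both groups were fixed by that, and only the sizes are of interest. For Cited4 the log2 fold change was 1.00 (SE 0.17, adjusted p = 0.0505 by limma) without NTD and 1.18 (SE 0.19, adjusted p = 0.152) with NTD. For Hif1a 1448183_a_at it was -1.60 (SE 0.29, adjusted p = 0.0541) and -1.03 (SE 0.31, adjusted p = 0.506), and for Cited2 1421267_a_at 0.88 (SE 0.20) and 0.79 (SE 0.22). Egln3 1418648_at had 1.19 (SE 0.33) and 0.69 (SE 0.36). No member was called in either, while 0.295% of all tested probe sets were called without NTD and 0% with NTD, and the 2 comparisons share their controls.

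**Figure D4:**
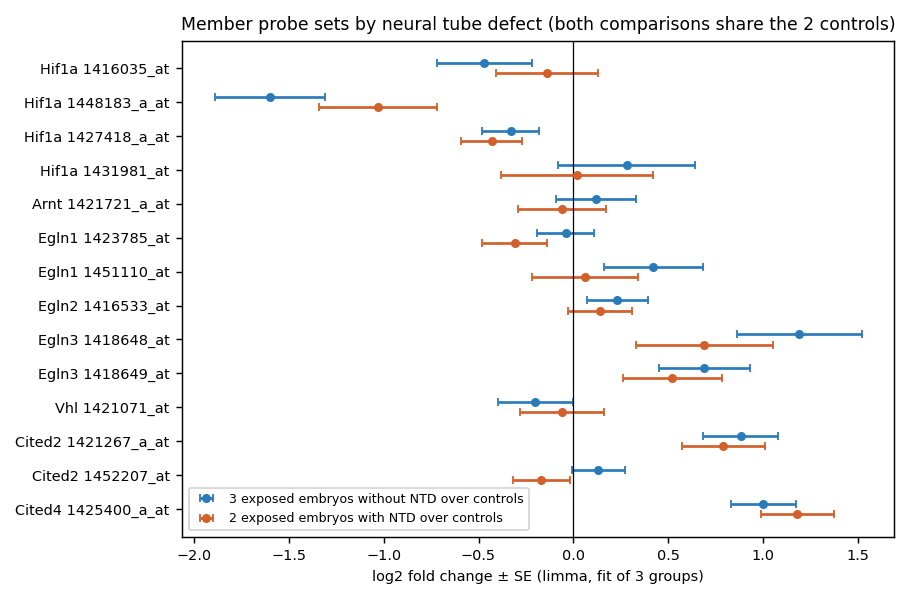
Log2 fold change over the 2 controls (horizontal axis, bars are the SE of limma) of the 3 exposed embryos without NTD (blue) and the 2 with NTD (orange) for the 14 tested member probe sets. Hif1a 1448183_a_at reads -1.60 and -1.03 and Cited4 1425400_a_at 1.00 and 1.18; for Cited2 1452207_at the values are 0.13 and -0.17.

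The partners of the pathway, a list of 18 genes with further subunits, ligase components, coactivators and chaperones, did not show a shared direction. Of 23 tested probe sets for 11 genes, none was called by limma, 3 were higher and 1 lower at an unadjusted p under 0.05, where 7.63% and 8.52% of all tested probe sets were, and the median log2 fold change was -0.01. By its brightest probe set, Apex1, a redox regulator of transcription factors, had means of 5240 ± 349 (SD, n = 2) and 6333 ± 651 (SD, n = 5) in control and exposed embryos, respectively (log2 fold change 0.27, SE 0.12, limma adjusted p = 0.295). For the alpha subunit Hif3a, the ubiquitin ligase Siah1a and the Vhl partner Eloc, a dimmer probe set reached an unadjusted p under 0.05, with log2 fold changes of 0.52, 0.39 and -0.71 and adjusted p values of 0.208, 0.210 and 0.238 by limma. The brightest probe sets of these 3 genes had 0.23, -0.11 and -0.04, so that in Siah1a the sign itself differed between probe sets.

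Most probe sets of known HIF targets had higher mean log2 signals in exposed than in control embryos. The list holds 39 genes of glucose uptake, glycolysis, angiogenesis, mitophagy and collagen hydroxylation, of which 28 were tested with 52 probe sets, and a number of them had been picked out by the study on these arrays. Of the 52 probe sets, 2 were called higher by limma and none lower, beside 0.11% and 0.0618% of all tested probe sets. At an unadjusted limma p under 0.05, 32 were higher and 2 lower, where 7.63% and 8.52% of all tested probe sets were. A log2 fold change above 0 was found in 84.6% of the 52, beside 50.1% of all tested probe sets. By brightest probe set, all 28 genes were above 0, with a median of 0.60, and 0.51 without exposed embryo 1 without NTD, where Kdm3a turned to -0.01. This holds for 1 probe set per gene and not for all 52. Tfrc, at 0.36 by its brightest probe set, was reported by the study as lower in exposed embryos on these arrays.

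The called probe sets were those of Slc2a1 and Pfkl. The glucose transporter Slc2a1 rose on 1426599_a_at from 1007 ± 114 (SD, n = 2) to 2061 ± 215 (SD, n = 5), which on the log2 scale was 1.03 (SE 0.14, adjusted p = 0.0279 by limma). Its brightest probe set, 1434773_a_at, had 0.60 (adjusted p = 0.261). By quantitative PCR on other embryos, the study reported Slc2a1 as lower in exposed embryos. It traced the discrepancy to 3' untranslated regions of different length, so that the array probe would not read all transcripts. The phosphofructokinase Pfkl had 2098 and 1824 in the controls, 4534, 3391 and 4228 in exposed embryos without NTD and 3328 and 4297 in those with NTD. All 5 exposed embryos were far above both controls, and the log2 fold change was 1.00 (SE 0.15, adjusted p = 0.0329 by limma).

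Of the other targets of smallest p, the lactate transporter Slc16a3 had a log2 fold change of 1.56 (SE 0.30, limma adjusted p = 0.0619), the mitophagy receptor Bnip3 1.39 (SE 0.32, 0.0974), the glycolytic enzymes Aldoa 0.83 (SE 0.22, 0.123) and Tpi1 0.65 (SE 0.13, 0.0659), and lactate dehydrogenase Ldha 0.60 (SE 0.15, 0.117). None of these 5 passed. In each, every exposed embryo was above both controls, as on 11.4% of all tested probe sets. The 5 were picked by their small p in this same comparison, so the lack of overlap adds no support.

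Across the embryos, the median log2 difference of the 28 target genes from the control mean was 1.01, 0.65 and 0.50 for the exposed embryos numbered 1 to 3 without NTD, respectively, and 0.33 and 0.63 for those numbered 1 and 2 with NTD. Exposed embryo 1 without NTD was the highest of the 7 in 21 of the 28, and in 5 of the 14 member probe sets. A control was the lowest in 25 of the 28. The count of 2 called probe sets was 5 when exposed embryo 1 without NTD was left out, 4 for exposed embryo 1 with NTD, 1 for exposed embryo 3 without NTD, and 0 for exposed embryo 2 with NTD or for either control. On the Hif1a probe sets 1448183_a_at and 1427418_a_at, in contrast, every exposed embryo was below both controls. Between 24 and 28 of the 28 targets were above both controls in each exposed embryo, beside 35.6% to 42% of all tested probe sets. The embryonic erythroid marker sums, made up mostly of globin signal, were above both controls in every exposed embryo and highest in exposed embryo 1 without NTD. That embryo was the highest for only 3 of the 7 markers, and the lowest exposed embryo for Slc4a1, Klf1 and Gata1. The part of the erythroid markers in the target values was not tested.

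**Figure D5:**
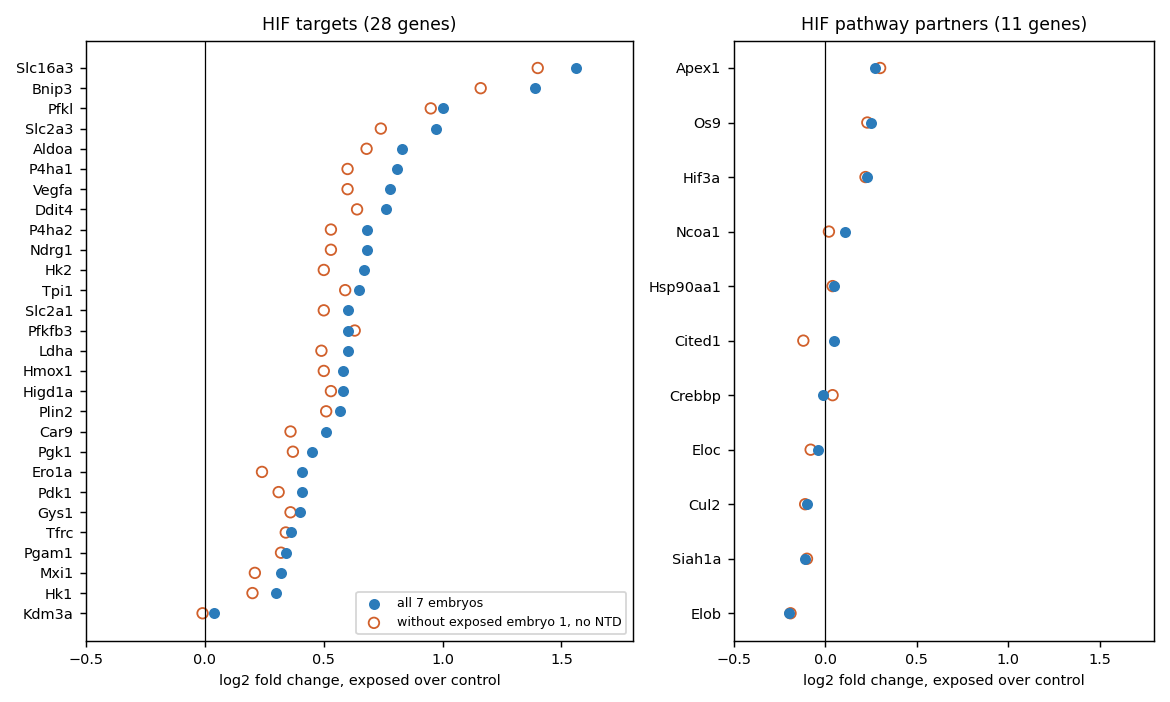
Log2 fold change of exposed over control embryos (horizontal axis) by brightest probe set for the 28 tested HIF targets (left) and the 11 tested pathway partners (right), with all 7 embryos (filled) and without exposed embryo 1 without NTD (open). With all embryos the targets run from 0.04 for Kdm3a to 1.56 for Slc16a3, and the partners lie between -0.20 and 0.27.

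The probe sets most like Hif1a 1448183_a_at over the 7 embryos by Pearson r of log2 signals were those of Gmcl1 (r = 0.989), Wdr48 (0.988), Skp2 (0.987), Tgfbr1 (0.987) and Reep3 (0.986), all with a negative log2 fold change, and 281 probe sets had an r of at least 0.9. For Cited4 they were Sfrp2 (0.985), Hdgf (0.972), Vegfd (0.965), Tnfsf9 (0.965) and Cngb1 (0.965), with 109 probe sets at an r of at least 0.9. None of these 10 passed the limma test. Such values are a description over 7 embryos of 2 litters, in which the step between the litters is part of every r.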

How the data were processed

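The 10 members and the lists of partners, HIF targets and cell type markers were chosen with earlier results of these data known. The deposited values are linear intensities: the authors computed MAS5 signals from matched and mismatched probes and scaled each array to 1 trimmed mean, 500.2 on all 7 with 2% trimmed from each end. The MAS5 version was not given in the sources used here. Detection calls were not used. The number of arrays, 1 per embryo, limits the precision. After 64 control probe sets were set aside, names came from the array annotation, which gives 20393 probe sets 1 symbol, 691 several and 1606 none. Only those with 1 symbol were named.

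Probe sets were tested if 2 or more of 7 arrays had them at or above that array's 40th percentile. They entered on the log2 scale, with values below 1 set to 1. limma 3.58.1 in R 4.3.3, with lmFit and eBayes and an intensity trend of the spread, compared the 5 exposed embryos as 1 group with the 2 controls. The contrast of embryos with NTD against those without came from a fit of all 3 groups. Calls were made at a Benjamini-Hochberg adjusted p under 0.05 over all 14554 tested probe sets. Single values were compared by two-sided exact permutation tests of 2 against 5 embryos. The fold is the ratio of mean signals. The limma test was tested on simulated data first.

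The genes named are all member probe sets, partners with an unadjusted p under 0.05, the called HIF targets and the 6 of smallest p by brightest probe set, and the 5 probe sets most like Hif1a and Cited4 in profile. Alternatives were quantile normalization, median centring, a floor of 20, an offset of 50, no filter and one at the 60th percentile, no trend, array weights, each embryo left out, the replicate number as a block, the methods' t-test (Welch's, on log2 signals), a regularized test as in Cyber-T with a window of 101 and a confidence of 10 (the study's settings are not stated in its methods), and either exposed group alone. Promoter windows came from RefSeq. NumPy 2.4.6, pandas 2.3.3, Matplotlib 3.10.9 and SciPy 1.17.1 were run in Python 3.11.15. The second, pooled array experiment of the study was not analysed here.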

Additional observations from a re-analysis of the deposited data

Results flagged for a closer look

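Cited2 on its brighter probe set, 1452207_at, had signals of 2236, 2063 and 2166 in the exposed embryos without NTD, all above the control mean of 1964, and of 1931 and 1582 in those with NTD, both below it. The log2 difference with against without NTD was -0.30 (SE 0.14, limma adjusted p = 0.999). This opposite side of the controls was noticed after the values were seen. By limma's test of the difference itself over all tested probe sets it was not called, and over the embryos left out in turn the difference ran from -0.44 to -0.16. The other tested Cited2 probe set, 1421267_a_at, was above both controls in all 5 exposed embryos.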

How the results depend on the processing

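Over the alternatives, 245 of 275 values of single member probe sets between exposed and control embryos kept their direction and their side of the threshold, as did 240 of 247 between embryos with and without NTD. The 1 member called higher (Cited4) became 0 with no filter, no trend, the methods' t-test after adjustment, or either exposed group alone, and 2 (with Cited2 1421267_a_at) with array weights or Cyber-T, and it was 0 to 1 with single embryos left out. The 0 called lower became 1 with array weights (Hif1a 1448183_a_at, adjusted p = 0.0263), 2 with Cyber-T and 0 to 1 with single embryos left out. Array weights called 3.37% and Cyber-T 9% of all tested probe sets, against 0.172% by the main limma test. At an unadjusted p under 0.05, the methods' t-test gave 3 members higher and 1 lower, Cyber-T 4 and 2. The HIF targets called higher, 2, became 1 with no filter, 0 with no trend or the methods' t-test, 16 with array weights, 28 with Cyber-T and 0 to 5 with single embryos left out, and those called lower, 0, became 1 with array weights and 2 with Cyber-T. Partners called lower, 0, became 1 with Cyber-T. The cause was not tested.

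Replicate numbers were taken as names only. Deviations from the group mean correlated at -0.25 to 0.03 for embryos of the same number, and at -0.16 to 0.25 for different numbers. In a group of 2 the deviations mirror each other, so these values cannot show whether the numbers stand for a shared step. With the replicate number as a block, which gives exposed embryo 3 without NTD a term of its own, 0 members were called higher and 0 HIF targets, and Cited4 had 1.04 (adjusted p = 0.142). The block turned Cited2 1452207_at to -0.02 in exposed against control embryos, and Egln2 to 0.01 and Cited2 1421267_a_at to 0.08 in embryos with against without NTD.

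Changes of sign were limited to values near 0. Array weights gave -0.01 for Arnt and -0.04 for Cited2 1452207_at, and the embryos with NTD alone -0.06 and -0.17. With single embryos left out, exposed against control ran from -0.04 to 0.38 for Hif1a 1431981_at, -0.06 to 0.15 for Arnt, -0.30 to 0.01 for Egln1 1423785_at, -0.02 to 0.58 for Egln1 1451110_at, -0.30 to 0.02 for Vhl and -0.03 to 0.09 for Cited2 1452207_at. With against without NTD ran from -0.72 to 0.19 for Hif1a 1431981_at, -0.21 to 0.05 for Egln2, -0.35 to 0.02 for Egln3 1418649_at and -0.27 to 0.08 for Cited2 1421267_a_at. The filter at the 60th percentile gave no value for both Egln3 probe sets, Arnt and Hif1a 1448183_a_at and 1431981_at. Dim signals, as for Epas1, limit what these arrays can show.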
